A study of Homo sapiens with 24 samples.

Results

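H3K4me3, a histone mark found mainly around active transcription start sites, was described at the regions of chromosome 19 that lie outside promoters and outside zinc finger genes, in a human beta cell line. The regions were chosen by position alone, as regions of the deposited H3K4me3 table on chromosome 19 that overlap neither the body of a protein-coding gene named ZNF with a number (and at most 1 letter) nor 2 kb on either side of a GENCODE protein-coding start. The rule kept 1578 regions, which is 34.3% of the 4594 regions of chromosome 19 and 1.62% of all 97545 regions. The mark was assayed by MINT-ChIP, a form of ChIP-seq that tags the chromatin of each sample with a barcode so that samples share an immunoprecipitation, in 4 non-senescent and 4 senescent samples of 500000 cells each. EndoC-βH3 is a line from fetal human pancreas, labelled WT, immortalized with hTERT and the SV40 large T antigen. The line also carries an inducible CreER recombinase. The senescent samples were treated for 3 weeks with 4-hydroxytamoxifen, which lets CreER cut the immortalizing genes out, and the non-senescent samples are labelled as controls. The labels give the 4-hydroxytamoxifen dose in mM and the methods in μM.

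All values below are the authors' mean normalized count of a region, the average over both states after scaling for library size. It has no replicate error, and it cannot separate senescent from non-senescent cells. Values of single samples are not in the table used, their depth is unknown, and the table's columns for the comparison of the states are the authors' own results and were not used. Change with senescence is therefore not described here, either by distance to zinc finger genes or by block. Regions are not replicates of a condition, so they were described by counts, medians and quartiles, and no test was run across them. As a check of the cell line, the strongest promoter region had a mean normalized count of 588 at ISL1, 260.5 at PDX1, 173 at NKX6-1, 60.3 at ABCC8, 24.7 at INS and 6.94 at IAPP, which are beta cell genes, and MAFA had no region. Among genes of other pancreatic or blood cell types the values were 24.1 at KRT19, 21.9 at SST, 17.6 at PECAM1, 5.30 at GCG and 1.12 at PRSS1, while PPY and PTPRC had no region.

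KRAB zinc finger proteins form the largest family of human DNA-binding repressors, and most of their genes stand in tandem clusters on chromosome 19. The clusters arose by repeated duplication, and the bodies of these genes are known to carry the repressive mark H3K9me3 in many cell types. H3K4me3 outside annotated coding starts usually marks starts of noncoding transcripts, unannotated starts or active enhancers, where it is weaker than at promoters. Of the protein-coding genes of GENCODE release 44, 246 on chromosome 19 matched the zinc finger rule, out of 508 in the genome. The rule goes by symbol alone. Whether a matched gene encodes a KRAB protein or stands in a cluster was not checked, so distances below are not distances to KRAB clusters.

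The sequences below come from strong regions at both ends of the distance scale and at the GC-rich end of the range of base composition. They are not typical of the 1578 regions, which had a median mean normalized count of 2.78 and a median GC content of 43.6%. Each sequence is the central 300 bases of a region, on the plus strand of hg38 and in lower case. Every CG dinucleotide is in capitals, because H3K4 methyltransferase complexes are known to be recruited to unmethylated CpG-rich DNA. The strongest region within 10 kb of a zinc finger gene (mean normalized count 91.8, at the pseudogene ZNF321P) is shown at chr19:52942849-52943148, where the window held 12 CG dinucleotides. The strongest region over 1 Mb from any such gene (161, at the lncRNA gene LINC00662) is shown at chr19:27793660-27793959, with 19 CG dinucleotides. Among the 100 regions with the highest mean normalized counts, the most GC-rich overlaps the cytochrome P450 pseudogene CYP2T1P (62.4% GC, chr19:40810731-40811030), and its window held 18 CG dinucleotides.
ZNF321P region: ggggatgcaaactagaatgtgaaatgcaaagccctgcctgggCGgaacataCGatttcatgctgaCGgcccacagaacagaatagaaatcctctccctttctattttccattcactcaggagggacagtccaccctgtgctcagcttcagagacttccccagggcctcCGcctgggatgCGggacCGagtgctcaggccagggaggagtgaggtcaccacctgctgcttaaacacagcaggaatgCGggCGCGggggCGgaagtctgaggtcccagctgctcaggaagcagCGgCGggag
LINC00662 region: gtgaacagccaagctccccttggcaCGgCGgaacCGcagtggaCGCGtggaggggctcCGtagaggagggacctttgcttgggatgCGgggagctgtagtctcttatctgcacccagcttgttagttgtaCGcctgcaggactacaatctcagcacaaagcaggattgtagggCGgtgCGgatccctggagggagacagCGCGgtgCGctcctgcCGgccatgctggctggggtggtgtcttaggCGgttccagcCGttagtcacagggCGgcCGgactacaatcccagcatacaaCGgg
CYP2T1P region: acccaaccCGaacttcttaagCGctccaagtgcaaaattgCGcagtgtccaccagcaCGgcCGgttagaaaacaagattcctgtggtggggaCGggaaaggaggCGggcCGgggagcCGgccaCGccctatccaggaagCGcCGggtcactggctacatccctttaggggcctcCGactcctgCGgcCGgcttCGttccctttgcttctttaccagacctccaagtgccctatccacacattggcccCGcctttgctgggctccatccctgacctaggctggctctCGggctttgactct

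Most of the 1578 regions were weak and narrow. Their median mean normalized count was 2.78, with quartiles of 1.74 and 5.07 and a range from 0.465 to 161. Regions of exactly 500 bp made up 55.3% of them (872 regions), and the widest spanned 4860 bp. They held 15.6% of the summed mean normalized counts of chromosome 19 and 0.618% of those of all regions. The same quantity had a median of 11.5 in the 1678 promoter regions of chromosome 19 and 3.37 in the 1338 regions inside its zinc finger genes outside promoters. Outside promoters and zinc finger genes, the 70608 regions of the other chromosomes had a median of 3.52, with 4.01 on the gene-dense chromosome 17 and 3.91 on chromosome 22. The regions described here were thus lower in the middle of the distribution than each of these sets. A mean normalized count of 10 was reached by 12.7% of them (200 regions). This share was above the 10.5% of the regions inside zinc finger genes. In the remaining sets it lay between 19.9% on the other chromosomes and 52.7% in the promoter regions of chromosome 19. Per kilobase of region the median was 4.78, against 5.57 on the other chromosomes, so the lower value was also seen per length. Their median GC content was 43.6%, against 39.8% on the other chromosomes and 39.6% in the regions inside zinc finger genes. It was 43.8% on chromosome 17 and 45.2% on chromosome 22, so the value was not above those of these gene-dense chromosomes.

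Regions lay more densely beside zinc finger genes than away from them, a measure chosen after its values were seen. In the first 10 kb around these genes there were 345 regions in 2.56 Mb of sequence that the rule allows, which is 135 regions per Mb. The density was 66.3 per Mb from 10 to 50 kb (280 regions), 38.4 from 50 to 200 kb (238 regions), 27.02 from 200 kb to 1 Mb (457 regions) and 27.04 farther away (258 regions). Inside the zinc finger genes themselves, outside promoters, it was 225 per Mb, so the flanks stood between the gene bodies and the rest of the chromosome. The share of sequence covered by regions fell in the same order, from 9.74% in the nearest class to 4.35%, 2.73%, 2.17% and 2.31%. Of the 246 zinc finger genes, 166 had at least 1 of the 1578 regions within 10 kb and 80 had none, with a median of 1 and at most 8 per gene. A region within 10 kb of several such genes was counted for each of them. The allowed sequence beside each gene was not taken into account, and other coding genes were not counted in this way.

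**Figure D1:**
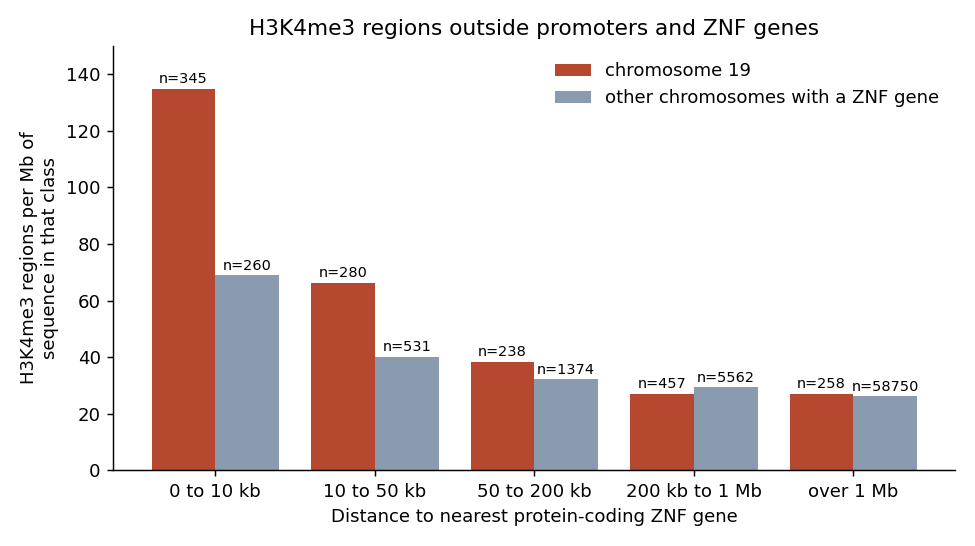
H3K4me3 regions outside promoters and zinc finger genes per Mb of sequence (y axis) by distance to the nearest protein-coding ZNF gene (x axis), on chromosome 19 (red) and on the 20 other chromosomes with such a gene (grey-blue), with the number of regions above each bar. On chromosome 19 the density falls from 135 per Mb within 10 kb to 27.04 per Mb over 1 Mb away, and on the other chromosomes from 68.9 to 26.1.

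The other chromosomes gave a smaller gradient of the same direction. Distances could be given on 20 other chromosomes, with Y left out and without chromosomes 13 and 21, which have no zinc finger gene by the rule. Around their 262 zinc finger genes there were 68.9 regions per Mb within 10 kb, 40.1 from 10 to 50 kb, 32.1 from 50 to 200 kb, 29.3 from 200 kb to 1 Mb and 26.1 farther away. Beyond 200 kb the densities of chromosome 19 and of the other chromosomes were close, and within 50 kb chromosome 19 had the higher values. Other coding genes had no such gradient on chromosome 19. Over 200 kb from any zinc finger gene there were 21.6 regions per Mb within 10 kb of another coding gene, 25.9 inside the bodies of such genes, 29.6 from 10 to 50 kb and 31.3 farther away. Within 50 kb of a zinc finger gene, the density was 87.7 per Mb inside the bodies of other coding genes and 93.7 outside them. Other coding genes were all those that the naming rule does not match, so genes such as ZNF559-ZNF177 and ZFP30 count among them. The 87.7 per Mb is therefore not a value for genes unrelated to zinc finger genes.

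The dense flanks were made up mainly of weak regions. Regions with a mean normalized count under 5 numbered 110 per Mb within 10 kb, 56.1 from 10 to 50 kb, 29.4 from 50 to 200 kb, and 18.0 and 18.2 per Mb in the last classes. Regions with at least 5 numbered 25.01 per Mb within 10 kb, 10.2 from 10 to 50 kb, 9.04 from 50 to 200 kb, 8.99 from 200 kb to 1 Mb and 8.80 farther away. For these stronger regions the higher density was thus found in the nearest class and hardly beyond it. With all regions, the density within 50 kb was 3.41 times that over 200 kb, and with regions of at least 5 it was 1.77 times.

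Within a region, the mean normalized count was slightly lower near zinc finger genes than far from them. The medians were 2.69 within 10 kb, 2.43 from 10 to 50 kb, 2.59 from 50 to 200 kb, 3.09 from 200 kb to 1 Mb and 3.18 farther away. The upper quartile differed more, at 4.06, 3.65, 4.76, 7.02 and 6.96 in the same order, and the share of regions with a mean normalized count of at least 10 was 6.38%, 6.79%, 11.3%, 18.8% and 17.8%. The distributions overlapped over most of their range, and the strongest region of each class was above 70, although in the class from 50 to 200 kb this was the multi-copy region at ENSG00000287001 (138) and the next was 69.9, at ARHGEF18. Within 50 kb the median was 0.812 of that over 200 kb. Across the 1578 regions, Spearman's correlation between mean normalized count and distance was 0.110, a weak relation among regions that share the same 8 samples and whose width (correlation 0.790) and GC content (correlation 0.289) moved with the same value.

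**Figure D2:**
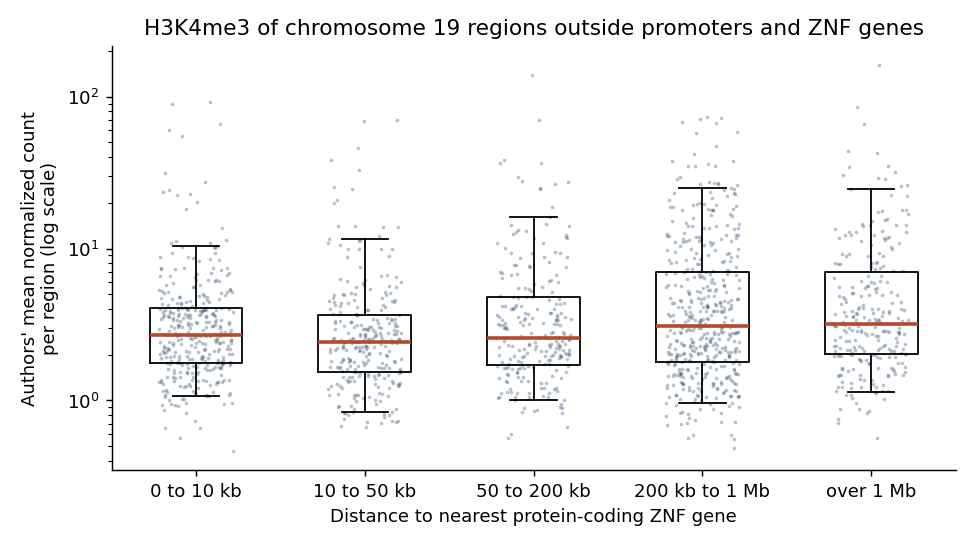
The authors' mean normalized count of each of the 1578 regions (y axis, log scale) by distance to the nearest protein-coding ZNF gene (x axis). Points are regions, boxes show the quartiles with the median in red, and whiskers span the 5th to the 95th percentile. Medians lie between 2.43 and 3.18, and the boxes reach higher in the classes over 200 kb.

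GC content differed with distance too, with medians of 41.4% within 10 kb and 46.4% over 1 Mb. Among regions of under 40% GC the median mean normalized count was 2.48 within 50 kb of a zinc finger gene (258 regions) and 2.13 over 200 kb away (183 regions). At 50% GC and over the medians were 4.76 (60 regions) and 4.86 (244 regions). From 40 to 45% they were 2.48 and 2.30, and from 45 to 50% they were 2.48 and 3.24. The lower value near zinc finger genes was therefore seen in the class from 45 to 50% GC, was small at 50% and over, and had the opposite direction in both classes under 45%. How much of the difference in signal goes with GC content was not tested.

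The density did not follow the same pattern. In 1 kb bins of under 40% GC there were 120.1 regions per Mb within 50 kb of a zinc finger gene and 30.5 over 200 kb away. The values were 106 and 30.6 from 40 to 45% GC, 77.9 and 24.2 from 45 to 50%, and 52.1 and 25.8 at 50% and over. The density near zinc finger genes was higher in each GC class and fell with rising GC content, while that far from them lay between 24.2 and 30.6 per Mb.

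**Figure D3:**
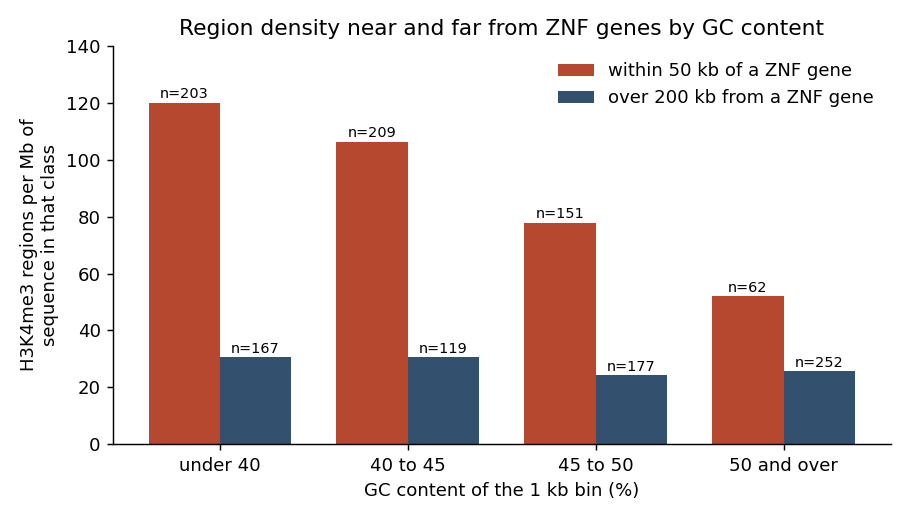
Regions per Mb of sequence (y axis) in 1 kb bins of 4 GC classes (x axis, percent), within 50 kb of a protein-coding ZNF gene (red) and over 200 kb away (blue), with the number of regions above each bar. Red bars run from 120.1 to 52.1 per Mb and blue bars from 30.5 to 25.8, so the red bar is the higher in each class.

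Sequence copies were few among these regions. A region was counted as multi-copy when the median number of genome-wide matches of sampled stretches of 24 bases was over 2, which held for 86 regions (5.45%). Their share was 4.93% within 10 kb of a zinc finger gene, 7.14% from 10 to 50 kb, 5.88% from 50 to 200 kb, 5.69% from 200 kb to 1 Mb and 3.49% farther away, with no steady order by distance. Their median mean normalized count was 2.21 against 2.82 for the other 1492 regions. Regions with at least 50% GC and an observed over expected CpG ratio of at least 0.6 numbered 61 (3.87%). These are common thresholds for a CpG island, but they were applied here to the whole length of each region. The median of these 61 regions was 7.58 against 2.71 for the rest. A short island inside a wide region can be missed, so the shares may be too low. The LINC00662 region (50.8% GC, ratio 0.437) was not counted, although its central 300 bases had 62% GC and 19 CG dinucleotides. Outside promoters and zinc finger genes the share of such regions was 2.18% on the other chromosomes, 5.33% on chromosome 17 and 4.47% on chromosome 22. Over all regions it was 7.78%. The island-like regions made up 0.580% of the class within 10 kb of a zinc finger gene (2 regions), 2.50% from 10 to 50 kb, 4.2% from 50 to 200 kb, 7.44% from 200 kb to 1 Mb and 3.10% farther away (8 regions).

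A mean normalized count of at least 10 was reached by 28.0% of the regions near lncRNA starts and 12.7% of all 1578, but most strong regions lay elsewhere. Of the 200 regions at this level, 77 were in coding gene bodies, 58 between genes, 40 within 2 kb of a lncRNA start, 13 near another noncoding start and 12 in noncoding gene bodies. Within 2 kb of the start of a lncRNA lay 143 regions (9.06%), with a median mean normalized count of 3.89 and an upper quartile of 11.7. Their upper quartile was the highest of the annotation classes. The 506 regions that lay in a coding gene body and near no noncoding start had a median of 3.24. The 572 intergenic regions had a median of 2.40, the 222 regions in noncoding gene bodies 2.66, and the 135 within 2 kb of a noncoding start of another kind 2.53. Of the 10 regions with the highest values 5 lay within 2 kb of a lncRNA start, of the 50 highest 19, and of the 100 highest 24. Of these 100, 35 overlapped no gene body, against 39.9% of all 1578. The 100 highest regions held 40.1% of the summed mean normalized counts of all 1578.

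The strongest of all 1578 regions was at LINC00662, a lncRNA gene close to the centromere on the long arm. It spans 27792001 to 27795618, has a mean normalized count of 161 and lies 2429 kb from ZNF536, the nearest zinc finger gene. Its central sequence is shown above, and the stretches sampled across the region had a median of 1 copy in the genome. The next, at 138, overlaps an exon of the noncoding gene ENSG00000287001 (50135541 to 50137544), 82.1 kb from ZNF473. Its sampled stretches had a median of 17 copies in the genome, so its reads cannot be assigned to this place with certainty. UCA1, a lncRNA first described in bladder cancer, overlaps a region of 85.3 (15835416 to 15837960), together with LINC01764.

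Some of the strongest regions lay close to genes that the naming rule matches, at noncoding neighbours of them. ZNF321P, a zinc finger pseudogene that the rule does not exclude, overlaps the region of 91.8 (52941424 to 52944573), 4.80 kb from ZNF816. The body of ZNF816-ZNF321P, a gene whose symbol the rule does not match, overlaps the same region. That region is therefore outside zinc finger genes only by the naming rule. LINC01530 overlaps a region of 89.2 (51593394 to 51595700) at 0.883 kb from ZNF175. ZNF790-AS1, the antisense transcript of ZNF790, overlaps a region of 70.5 (36796545 to 36799908) that lies 17.5 kb from the coding gene. In each case an annotated noncoding start is within 2 kb of the region.

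The remaining regions among the 10 strongest differed in their surroundings. Between genes, 23.3 kb from the nearest start of CCNE1, which encodes cyclin E1, a driver of entry into S phase, a region had a mean normalized count of 73.7 (29845009 to 29846417). A region of 70.8 overlaps the body of ABHD17A, 2.97 kb from its start, and lies within 2 kb of the starts of lncRNA genes (1874050 to 1877045). In an intron of ARHGEF18, which encodes a guanine nucleotide exchange factor, a region of 69.9 was only 830 bp wide (7450261 to 7451090) and had the highest ratio of observed to expected CpG of these 10, at 1.16. At the pseudogene C19orf48P the value was 72.0 (50802571 to 50805620).

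Along the chromosome, the 30 blocks of 2 Mb held between 17 and 116 regions, with a median of 48.5. The density ranged from 13.3 to 157 regions per Mb of allowed sequence, with a median of 38.4. Across blocks, Spearman's correlation between the number of zinc finger genes and the density was 0.685, and between that number and the block's median mean normalized count it was −0.443. These values describe 30 neighbouring blocks of 1 chromosome. The block's own GC content had a Spearman's correlation of 0.559 with its median mean normalized count, so the latter moved with base composition as well.

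The blocks with the highest density were chosen after their values were seen. The block from 36000001 to 38000000, which holds the zinc finger cluster with ZNF790 and 26 zinc finger genes, had 115 regions at 157 per Mb. The last, shorter block, from 58000001, had 32 regions at 130 per Mb in 0.246 Mb of allowed sequence. The block from 56000001 to 58000000 had the most regions (116, at 108 per Mb) and the most zinc finger genes (40). At the other end, the first 2 Mb had the fewest regions (17, at 13.8 per Mb), and the block from 16000001 to 18000000 had the lowest density (19 regions, at 13.3 per Mb). Neither holds a zinc finger gene. The other blocks without one, which start at 4000001, 26000001 and 28000001, had 31.4, 40.5 and 35.6 regions per Mb. Some other zinc finger clusters had lower densities than the densest blocks. The blocks of the short arm near the centromere, from 20000001 to 22000000 and from 22000001 to 24000000, held 17 and 15 such genes but 40.5 and 50.3 regions per Mb.

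The order of the blocks by median mean normalized count was different. The highest medians were 5.63 from 2000001 to 4000000, 4.30 from 38000001 to 40000000 and 4.10 from 18000001 to 20000000. The strongest region of the block from 38000001 (57.7) lies in ACTN4, an actin-crosslinking protein gene. That of the block from 18000001 (65.7) lies at LINC00663. The lowest medians were 1.78 from 20000001 to 22000000, 2.04 from 52000001 to 54000000 and 2.18 from 22000001 to 24000000, in zinc finger clusters. In the block from 20000001 the strongest region (25.5) lies between genes nearest to the start of ZNF429, and in that from 22000001 (12.3) nearest to that of ZNF91.

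**Figure D4:**
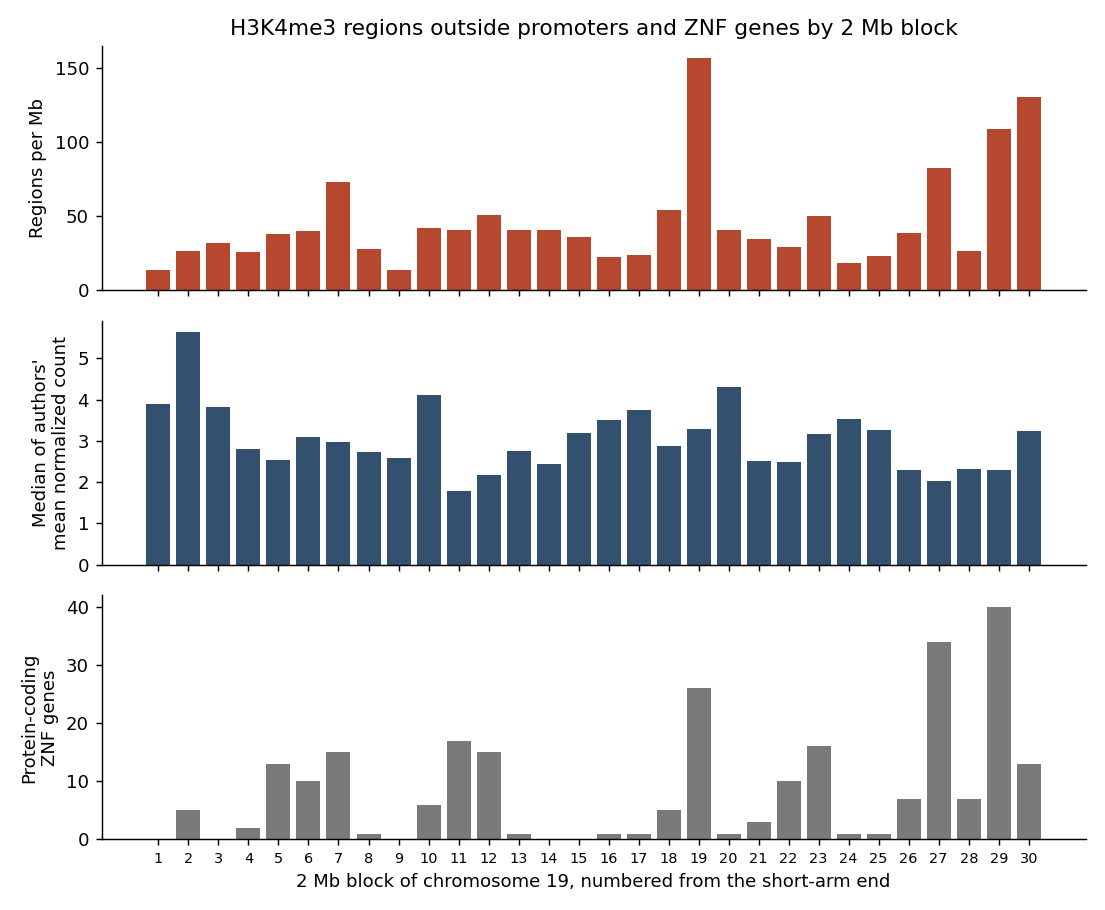
Regions per Mb of allowed sequence (top), median of the authors' mean normalized count (middle) and number of protein-coding ZNF genes (bottom) in the 30 blocks of 2 Mb of chromosome 19, numbered from the end of the short arm (x axis). Block 19 has the highest density (157 per Mb), block 2 the highest median (5.63) and block 29 the most ZNF genes (40).

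Zinc finger genes outside the naming rule (symbols starting with ZFP, ZSCAN, ZIM or ZBTB, with HKR1 and MZF1) had a density close to that of the nearest flanks. The list was made by symbol and has 18 coding genes among 22, with noncoding genes among the others such as the antisense transcripts ZIM2-AS1 (13 regions) and ZSCAN5A-AS1 (9 regions). Their bodies held 82 regions at 146 per Mb, in 14 of the 22. The median mean normalized count was 2.58 and the highest value 13.9, at ZFP30. All of these regions are also counted in the distance classes above. Any of them within 10 kb of a gene that the naming rule matches enter both densities, which are therefore not independent. How many do so was not counted. ZSCAN5A and ZSCAN5A-AS1 share their strongest region, so the counts by gene overlap. ZFP30 had 22 regions with a median of 3.29, ZFP14 had 12 with a median of 3.53, and ZSCAN5A had 12 with a median of 1.69.

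A hand-picked list of 21 beta cell and secretion genes had regions in 6 of its genes. These were 36 regions at 36.3 per Mb, with a median of 4.73, and 12 of them (33.3%) had at least 10. The share was 12.7% of all 1578 and 15.2% of the regions in coding gene bodies near no noncoding start. Regions near noncoding starts were not left out of the list. Most of the 12 regions lie in INSR and RFX2, so the share is not spread evenly over the list. RFX2, a winged-helix transcription factor gene of the family that binds X-box elements, had 6 regions with a median of 13.3. The strongest of them, at 65.8 (6064887 to 6068650), lies within 2 kb of the start of the lncRNA gene ENSG00000267262. INSR, the insulin receptor gene, had 6 with a median of 12.1 and a highest value of 38.4. PEPD, which encodes a dipeptidase, had 7 with a median of 7.08, and CACNA1A, a voltage-gated calcium channel gene, had 14 with a median of 3.59. GIPR, the receptor gene of an incretin hormone, had a single region of 2.39. Chromatin regulator genes had 19 regions in 6 of 18 genes, at 32.8 per Mb and with a median of 3.71. Of these, KDM4B, an H3K9 demethylase gene, had 7 with a median of 3.79.

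Other gene clusters of chromosome 19 were counted in the same way. Their allowed sequence ran from 58.9 kb for kallikrein genes to 656 kb for PSG and CEACAM genes, which had 18.3 regions per Mb. Kallikrein genes held 1 region (0.596), leukocyte and killer immunoglobulin-like receptor genes 2 (median 1.34), SIGLEC genes 4 (median 1.13), olfactory receptor genes 4 (median 1.59), and PSG and CEACAM genes 12 (median 2.54). Their densities ran from 10.2 per Mb for the receptor genes to 36.3 per Mb for the SIGLEC and the olfactory receptor genes, which each cover only 110 kb of allowed sequence, close to the density of the beta cell list. Cytochrome P450 genes of family 2 held 3 regions (median 10.5), all in pseudogenes, the strongest at CYP2T1P (18.1), whose sequence is shown above.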

How the data were processed

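The H3K4me3 table covers 8 samples of EndoC-βH3 cells; the 16 samples of H3K27me3 and H3K9me3 were not analysed here. The authors' steps before deposit were Bowtie2 alignment to hg38, samtools processing, HOMER peak calling and the authors' own DESeq2 comparison of senescent and non-senescent samples; how peaks were merged, reads counted and duplicates treated is not given in the sources used here. The only signal used is the authors' deposited mean normalized count per region, an average over both states. The table's fold changes, standard errors, test scores, p-values and adjusted p-values are the authors' own comparison and were neither used nor printed. Without them and without values per sample, the planned comparison of the states could not be made.

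Region starts were read as counted from 0 and are printed counted from 1. All 97545 regions lie within the hg38 chromosome lengths. Genes and starts came from GENCODE release 44, and an overlap of at least 1 base counted. Allowed sequence is the chromosome without undetermined bases, promoter windows and zinc finger genes. Distances run from edge to edge. Copies were counted for up to 60 stretches of 24 bases per region on both strands of 194 hg38 sequences, alternate loci left out. Sequences were read from hg38. Named regions are the 10 with the highest mean normalized count and the strongest of each distance class and of the blocks with the highest and lowest medians. The regions, gene groups and classes were chosen with earlier results of these data known. The interval code and the copy count were tested on simulated data. Scripts ran in Python 3.11.15 (numba 0.67.0, numpy 2.4.6, matplotlib 3.10.9, scipy 1.17.1, pandas 2.3.3). A gene and a sequence that the naming rule would give are not reported here.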

Additional observations from a re-analysis of the deposited data

How the results depend on the processing

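Other definitions were tried for the number of regions, their median mean normalized count, its ratio to the other chromosomes, the ratio of medians and of densities within 50 kb and over 200 kb of a zinc finger gene, and the ratio of the highest to the lowest block median (3.16). They were a promoter window of 1 kb or 5 kb, starts of all genes, a wider zinc finger list with pseudogenes and antisense genes, exclusion by midpoint, a minimum of 5, values per kilobase and other blocks. The densities and the ratio to other chromosomes were added after seeing the data. Of 34 values, 27 moved by less than the limits set here, which were 1.5 times for counts, densities and block ratios and, for medians and their ratios, a 95% interval over regions. That interval treats regions as independent and is no replicate error. With a minimum of 5 there were 399 regions with a median of 10.0, 0.950 of that on the other chromosomes (0.788 without the minimum), a ratio of medians near to far of 0.742 and a ratio of densities of 1.77. Per kilobase the ratio to other chromosomes was 0.858. With 1 Mb blocks the highest block median was 6.39 times the lowest. No paired analysis was possible because the table holds no value per sample, and for the same reason no replicate could be left out and the alternatives planned for the comparison of the states were not run. Depth per sample is unknown, and most of these regions have mean normalized counts of under 5.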
